A study of Homo sapiens with 12 samples.

Results

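ARID1A is the largest subunit of the BAF form of SWI/SNF, a chromatin remodelling complex that uses ATP to move nucleosomes and so open enhancers and promoters. Much of its N-terminal part is intrinsically disordered, meaning that it takes no fixed fold. The labels call 1 such stretch IDR1b, and ΔIDR1b names the ARID1A protein without it. EWS-FLI1 is the fusion oncoprotein of Ewing sarcoma, in which the disordered start of EWSR1 is joined to the DNA-binding part of the ETS factor FLI1. It is known for binding BAF complexes and bringing them to GGAA repeats.

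The comparison asked which transcripts differed when ΔIDR1b ARID1A was put back into cells that lack ARID1A, in the presence of EWS-FLI1. The cells were 293T, a human embryonic kidney line, and carried an ARID1A knockout in every group. Whether the knockout is 1 clone, and how the ARID1A constructs were delivered, are not given in the sources used here. The knockout cells of the reference group received EWS-FLI1 and an empty vector in place of ARID1A (2 libraries, "no ARID1A" below), and the other group received EWS-FLI1 and ΔIDR1b ARID1A (2 libraries). These 4 of the 12 libraries of the series were chosen by their labels. Per the labels, cells were transfected with 2 µg of plasmid carrying EWS-FLI1 and grown on for 48 h; the same wording stands at every sample. Wild-type ARID1A with EWS-FLI1 (2 libraries) and the matching pairs of libraries without EWS-FLI1 serve as comparisons. PolyA RNA was sequenced, and each value is a count of read pairs per gene.

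The 2 libraries without ARID1A held 11880664 and 11702251 counts, and the 2 with ΔIDR1b held 13147699 and 13719199. At these depths a gene with 0 counts in a library could still be present at up to 0.259 CPM (the count scaled by library size), the level that 3 counts give in the shallowest library. That floor covers counting error only. The repeats of a group correlated at r = 0.981 without ARID1A and r = 0.983 with ΔIDR1b on the log2 CPM scale across genes, and in both groups they differed by more than sampling noise, so none was counted as a duplicate. The labels do not say that repeats came from separate cultures, so the p-values measure only the spread between these libraries, which may be technical. Of 8 genes described in the 293 line, 7 reached 1 CPM, and NEFM had no count. Defining markers of blood and immune cells (PTPRC, CD3E), endothelium (PECAM1, CDH5) and fibroblasts (COL1A2, DCN) were at or below 0.278 CPM in all 4 libraries.

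The introduced genes were read first. ARID1A was at 162 and 157 CPM in the libraries without ARID1A and at 2608 and 2621 CPM with ΔIDR1b. That is a 16.4-fold difference (log2 4.03 ± 0.11 SE, edgeR quasi-likelihood adjusted p = 9.88e-25), and the groups do not overlap. The knockout cells thus still carried ARID1A transcript. Counts of the transgene and of the endogenous gene cannot be separated. FLI1 was at 1830 and 1688 CPM without ARID1A and at 1888 and 1906 CPM with ΔIDR1b (log2 0.11 ± 0.09 SE, edgeR adjusted p = 0.367). EWSR1, which the fusion transcript also adds to, was at 2110 and 1976 CPM against 2044 and 2073 CPM (log2 0.01 ± 0.09 SE, edgeR adjusted p = 0.938). The 2 parts of the fusion therefore differed between the groups by less than the test could call.

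With ΔIDR1b, 7321 of the 20377 genes tested passed an edgeR adjusted p of 0.05, or 35.9%. Of these, 3680 rose (18.1% of the genes tested) and 3641 fell (17.9%). A log2 change of at least 1 was reached by 1055 of the genes that rose (5.18%) and 1515 of those that fell (7.43%). Large falls were thus more numerous than large rises, while the median over all genes was 0.02 on the log2 scale. Since these are bulk samples, fewer cells of a type and less RNA per cell cannot be told apart.

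**Figure D1:**
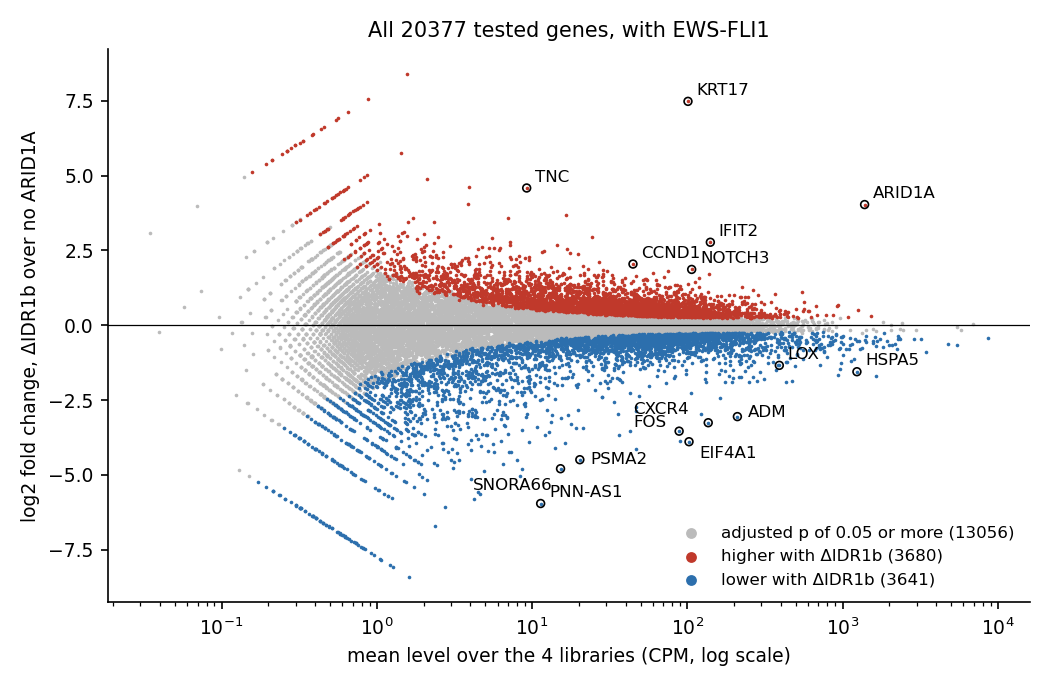
Each point is 1 of the 20377 genes tested, with its mean level over the 4 libraries in CPM (log axis) and its log2 fold change, ΔIDR1b over no ARID1A, both with EWS-FLI1. Red genes were higher (3680), blue genes lower (3641) and grey genes not called; the diagonal lines at the left are genes with few or no counts in 1 of the groups.

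KRT17, TNC, EPPK1 and KRT75 led the rises beside ARID1A. This holds among called genes with a symbol, at a mean of 5 CPM or more, whose groups do not overlap. KRT17, a keratin of basal and injured epithelia, was at 1.02 and 1.21 CPM without ARID1A and at 165 and 237 CPM with ΔIDR1b (chr17:41619442-41624842 in GRCh38). It was near the floor in both knockout libraries and abundant in both others. The difference was 179-fold (log2 7.48 ± 0.25 SE, edgeR adjusted p = 1.34e-21). TNC, which encodes the matrix glycoprotein tenascin-C, was at 0.512 and 0.951 CPM against 17.0 and 18.5 CPM (log2 4.59 ± 0.31 SE, edgeR adjusted p = 1.53e-13). KRT75, a hair follicle keratin, rose from 1.28 and 0.864 CPM to 12.3 and 13.6 CPM, and EPPK1, a plakin that binds keratin filaments, rose from 2.13 and 2.68 CPM to 30.2 and 31.3 CPM. In each of these 4 genes both ΔIDR1b libraries were far above both libraries without ARID1A. Other keratins changed less: KRT8 rose by log2 0.29 (edgeR adjusted p = 0.035), and KRT18 was not called (edgeR adjusted p = 0.114).

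Among the other large rises, IFIT2, an interferon-induced gene, went from 34.8 and 37.1 CPM to 263 and 229 CPM (log2 2.77 ± 0.12 SE, edgeR adjusted p = 4.41e-19). CHAC1, a glutathione-degrading enzyme, went from 5.46 and 5.79 CPM to 59.5 and 26.9 CPM, with the ΔIDR1b repeats far apart. INHBA, which encodes the subunit of activin A, rose from 2.13 and 1.73 CPM to 13.2 and 11.8 CPM. CLSTN2, a calsyntenin of synapses, HPS6, a part of a complex that builds lysosome-related organelles, C1QTNF1, a secreted C1q/TNF-related protein, and SMIM10L2B completed the 12 largest rises, with log2 changes of 2.58 to 2.91. NOTCH3, a Notch receptor, was among the 5 rises with the smallest p: 49.6 and 42.3 CPM against 165 and 170 CPM (log2 1.86 ± 0.12 SE, edgeR adjusted p = 1.27e-13).

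The 250 bases before the start of each of 25 named genes were read from RefSeq's promoter table (GRCh38.p14) and searched on both strands for 4 motifs. These were TGANTCA (bound by AP-1), GGAATG (bound by TEAD), GGAAGGAA (adjacent ETS cores) and GAANNTTC (the core of the heat-shock element, added after the values were seen). Of the 4 motifs, TGANTCA lay in 4.16% of the promoters of genes that rose, 3.41% of those that fell and 3.95% of all 12582 read. For GGAATG the shares were 8.71%, 9.31% and 9.35%, and for GGAAGGAA they were 2.77%, 2.43% and 2.82%. The shares thus lay within 1 percentage point of each other for each of these 3 motifs. Among the large rises whose window was read, 2 held a match. These 2 windows are shown because both genes went from near the floor to above 10 CPM. No window was read for KRT17, EPPK1, IFIT2, SMIM10L2B or C1QTNF1, so nothing is known here of their motifs. TNC (chr9:115118158-115118407, minus strand) held the ETS pair on the opposite strand, and KRT75 (chr12:52434372-52434621, minus strand) held the TEAD motif. Capitals mark the matches.
TNC: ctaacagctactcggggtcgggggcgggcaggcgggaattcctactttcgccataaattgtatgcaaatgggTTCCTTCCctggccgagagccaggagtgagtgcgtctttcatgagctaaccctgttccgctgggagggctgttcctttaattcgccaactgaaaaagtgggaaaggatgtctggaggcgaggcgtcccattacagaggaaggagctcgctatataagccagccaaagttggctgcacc
KRT75: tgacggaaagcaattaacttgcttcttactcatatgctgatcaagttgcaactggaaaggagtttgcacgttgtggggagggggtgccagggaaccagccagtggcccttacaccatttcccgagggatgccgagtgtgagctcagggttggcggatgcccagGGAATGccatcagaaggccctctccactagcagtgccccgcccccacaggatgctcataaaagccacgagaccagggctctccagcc

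The falls with the smallest p were in protein-coding genes counted well above the floor without ARID1A. FOS, an AP-1 subunit that is induced within minutes of growth factor signals, was at 158 and 169 CPM without ARID1A and at 14.7 and 13.4 CPM with ΔIDR1b. This is an 11.6-fold lower level (log2 -3.54 ± 0.12 SE, edgeR adjusted p = 3.36e-21), with a wide gap between the groups. CXCR4, the receptor of the chemokine CXCL12, was at 249 and 245 CPM against 21.9 and 29.7 CPM (log2 -3.26 ± 0.13 SE, edgeR adjusted p = 4.17e-20). The translation initiation helicase EIF4A1 was at 194 and 191 CPM against 12.3 and 13.6 CPM. The hypoxia-induced gene ANKRD37 was at 159 and 175 CPM against 8.78 and 13.97 CPM, and the glycolytic enzyme ALDOA at 225 and 213 CPM against 24.6 and 31.0 CPM. For the last 3 genes the counted part is incomplete: 47.4% of the exonic bases of EIF4A1, 40.3% of those of ANKRD37 and 54.2% of those of ALDOA also belong to another gene, and fragments there were not counted. Their levels thus stand for the remaining exonic bases, and the change of the whole mRNA is not shown.

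The 12 largest falls by size held few ordinary mRNAs. PNN-AS1, a gene antisense to the splicing-associated gene PNN, fell from 21.1 and 23.7 CPM to 0.283 and 0.417 CPM (log2 -5.96 ± 0.40 SE, edgeR adjusted p = 1.30e-13). The microRNA locus MIR3153 fell from 16.2 and 16.4 CPM to 0.637 and 0.348 CPM, and the small nucleolar RNA locus SNORA66 from 32.8 and 26.1 CPM to 1.42 and 0.695 CPM. LIX1L-AS1 (antisense), KRT18P7 and KRT8P36 (keratin pseudogenes), RNF103-CHMP3 (a read-through of a pair of genes) and the histone genes H2BC18 and H2BC21 were also in this set. H2BC21 was the most abundant of them, at 96.2 and 80.1 CPM against 4.81 and 5.14 CPM. The proteasome subunit PSMA2, GLIPR1 and the phosphatase PTP4A1 were the remaining members. Overlap with other genes covered 29.7% of the exons of PSMA2, 24.4% of GLIPR1 and 80.4% of PTP4A1. Reads were counted without strand, so reads of PNN-AS1 and LIX1L-AS1 cannot be told apart from those of the genes they face. KRT18P7 and KRT8P36 resemble KRT18 and KRT8, which leaves the placing of their reads uncertain.

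**Figure D2:**
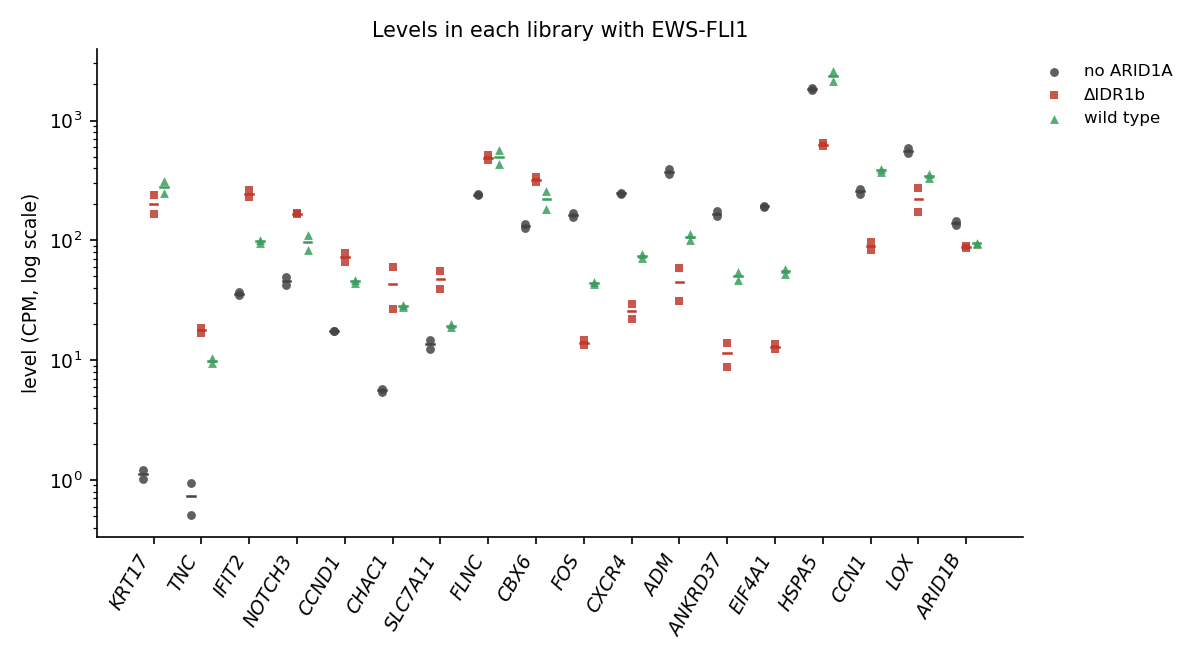
Levels of 18 genes in CPM (log axis) in the 2 libraries of each group with EWS-FLI1; each symbol is 1 library and each short bar a group mean. KRT17 and TNC sit near 1 CPM without ARID1A, FOS, CXCR4, ADM, ANKRD37 and EIF4A1 are lowest with ΔIDR1b, and HSPA5 and CCN1 are low with ΔIDR1b alone.

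The direction of change differed between classes of gene. All 54 called of the 72 snoRNA loci tested were lower (75%, against 17.9% lower among all genes), with a median log2 change of -2.69. The median was -1.72 in a refit with length and base composition trends removed. Their summed level was 262 and 241 CPM without ARID1A and 43.0 and 43.1 CPM with ΔIDR1b. The library was made from polyA RNA, so counts at such loci do not measure the mature small RNAs. Genes named as snoRNA hosts (SNHG) were lower in 16 of 24, with none higher. Of 28 genes of the replication-dependent histone clusters, 20 fell and none rose, from a summed 278 and 239 CPM to 46.3 and 43.7 CPM. These mRNAs normally lack a polyA tail. In the same contrast without EWS-FLI1, 18 of the 28 histone genes and 40 of the 72 snoRNA loci were lower, and none was higher. Wild-type ARID1A with EWS-FLI1 was also below no ARID1A. Its median log2 change was -1.87 for the histone genes, against -2.07 with ΔIDR1b, and -0.892 for the snoRNA loci.

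Long non-coding RNAs fell in 306 of 1569 (19.5%) and rose in 91 (5.8%). Their median log2 change over no ARID1A was -0.208 with ΔIDR1b and -0.438 with wild-type ARID1A, both with EWS-FLI1. Pseudogenes fell in 250 of 1313 (19.0%) and rose in 56 (4.27%), with a median of -0.42, and -0.11 with length and base composition trends removed. In both classes the share of falls was near the 17.9% of all genes. Their shares of rises were below the 18.1% of all genes. Protein-coding genes leaned the other way, with 3360 of 13943 higher (24.1%) and 2280 lower (16.4%), and the balance moved with exonic length. Below 1000 bases 5.81% rose and 27.7% fell. The median of these short genes was -0.29, and it turned to 0.17 with length and base composition trends removed. From 8000 bases up, 29.3% rose and 14.5% fell. Protein-coding genes whose exons overlap no other gene rose in 26.0% and fell in 14.7%, while those with 25% or more of their exonic bases shared rose in 15% and fell in 22%. The part of length, overlap or RNA processing in the results for single genes was not tested, apart from a refit with length and base composition trends removed.

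**Figure D3:**
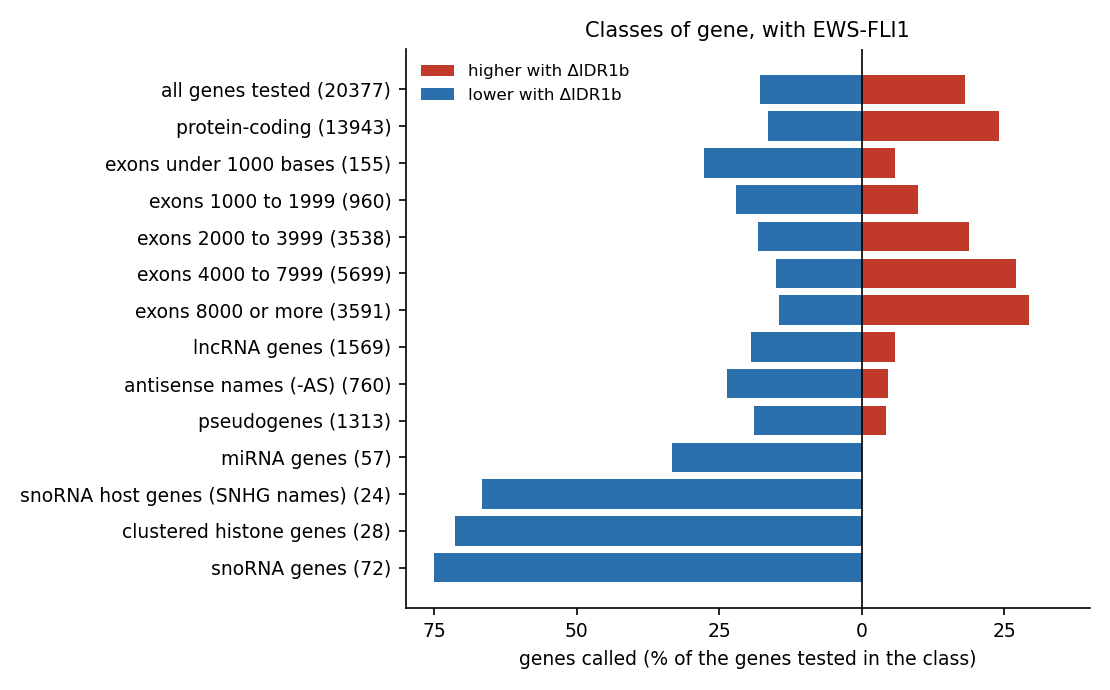
Percentage of the genes tested in each class that were higher (red, to the right) or lower (blue, to the left) with ΔIDR1b than without ARID1A, with the number tested in brackets. The lower share falls and the higher share rises with exonic length, and snoRNA genes, SNHG genes and clustered histone genes hold no call in the higher direction.

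The lists of genes below were each set against 35.9% called among all genes tested. All 79 mRNAs of cytosolic ribosomal proteins were lower with ΔIDR1b, where 17.9% of all genes were. Their summed level was 85270 and 83650 CPM without ARID1A and 50860 and 58850 CPM with ΔIDR1b, and the median log2 change was -0.66. Single members ranged from -0.26 to -2.39, the extreme being RPS10, at 52.5 and 41.8 CPM against 8.99 and 8.97 CPM. RPS10 shares 40.3% of its exonic bases with another gene. Of the 29 members that overlap no gene, all 29 were lower in a fit on such genes alone. RPS15A went from 349 and 338 CPM to 150 and 169 CPM.

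Of 75 nuclear genes of the respiratory chain, which moves electrons to oxygen in the inner mitochondrial membrane, 40 fell and 2 rose (median -0.37). The 40 became 25 without no-ARID1A repeat 1, and also 25 without ΔIDR1b repeat 1, and the 2 rises became 1 without no-ARID1A repeat 1. NDUFA11, of complex I, went from 55.4 and 48.4 CPM to 25.7 and 20.9 CPM, and NDUFB8, with 48.5% of its exons shared, from 52.7 and 55.0 CPM to 18.7 and 25.4 CPM. NDUFS1, the largest complex I subunit, was 1 of the 2 that rose, from 108 and 107 CPM to 140 and 138 CPM. The 13 mRNAs of the mitochondrial genome were not lower as a set: 7 rose and 1 fell (median 0.42). The same contrast without EWS-FLI1 had 3 of them higher and 4 lower (median 0.08). With EWS-FLI1, MT-ND1 was at 381 and 304 CPM against 877 and 617 CPM. The repeats of a group lay apart here, and only 4 of the 7 rises were called without no-ARID1A repeat 2, and likewise without ΔIDR1b repeat 1. The 1 fall was not called without no-ARID1A repeat 1 or ΔIDR1b repeat 2.

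In the list of glycolysis and hypoxia genes, 18 of 29 fell and 1 rose (median -0.37). The 1 rise was not called without no-ARID1A repeat 1 or ΔIDR1b repeat 2. The secreted factors were among the steepest: ADM (adrenomedullin) went from 359 and 391.5 CPM to 31.4 and 58.9 CPM (log2 -3.05 ± 0.16 SE, edgeR adjusted p = 1.56e-16). VEGFA, the main angiogenic growth factor, went from 461 and 501 CPM to 119 and 159 CPM (log2 -1.79 ± 0.12 SE). The enzyme GAPDH was at 4441 and 4595 CPM against 2113 and 2740 CPM. ENO1 was at 2545 and 2645 CPM against 2071 and 2614 CPM and did not pass the test (edgeR adjusted p = 0.240), nor did LDHA (0.177) or the glucose transporter SLC2A1 (0.642).

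Of 26 heat-shock and endoplasmic reticulum chaperones, 10 fell and 6 rose. In the fit on genes without overlap, which tested 7 of them, 2 fell and 4 rose. HSPA5, the chaperone BiP of the endoplasmic reticulum, was at 1882 and 1811 CPM against 614 and 644 CPM (log2 -1.55 ± 0.10 SE, edgeR adjusted p = 1.56e-14), and HSP90B1 of the same compartment at 1193 and 1203 CPM against 686 and 709 CPM. HSPA4, a nucleotide exchange factor of cytosolic HSP70, rose from 203 and 214 CPM to 349 and 329 CPM, and the small chaperone HSPB8 from 14.8 and 13.1 CPM to 27.9 and 32.1 CPM. HSP90AA1 was at 2369 and 2352 CPM against 2451 and 2552 CPM and was not called (edgeR adjusted p = 0.477).

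Among 25 targets of ATF4, the factor of the amino acid response, 7 rose and 7 fell. The cystine transporter SLC7A11 rose from 12.3 and 14.8 CPM to 55.6 and 39.3 CPM, and the leucine sensor SESN2 from 40.8 and 54.2 CPM to 145 and 95.3 CPM. DDIT4, an inhibitor of mTORC1, fell from 1381 and 1474 CPM to 435 and 475 CPM. DDIT3, which encodes the factor CHOP, fell from 33.4 and 35.2 CPM to 13.2 and 10.6 CPM, with 39.6% of its exons shared. Of 24 cholesterol synthesis genes 8 fell and 3 rose; INSIG1, which holds back the sterol sensor, was at 173 and 178 CPM against 70.6 and 86.3 CPM. Metallothioneins MT1X and MT2A, which bind zinc and copper, fell as well, MT2A from 41.7 and 43.9 CPM to 16.4 and 15.9 CPM.

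Among adhesion and matrix genes, rises were counted against the 18.1% of all genes that rose. That share includes non-coding genes and pseudogenes, which rose less often. Of protein-coding genes 24.1% rose, and of those with 8000 or more exonic bases 29.3% rose. Whether the adhesion, matrix and actin lists rose more often than protein-coding genes of like length was not tested. Of 34 laminins and matrix glycoproteins 14 rose and 2 fell. The median log2 change was 0.30, and 9 rises were left without no-ARID1A repeat 1 and 8 without ΔIDR1b repeat 2. The fit on genes without overlap had 3 of 16 laminins and matrix glycoproteins higher and 1 lower (median 0.20). Beside TNC, FN1 (fibronectin) rose from 172 and 159 CPM to 273 and 301 CPM. LAMA3, a laminin chain of epithelial basement membrane, fell from 90.5 and 107 CPM to 69.9 and 66.4 CPM. Of 37 collagen chains 12 rose and 5 fell, with 6 rises without ΔIDR1b repeat 2 and 7 without no-ARID1A repeat 1, and 2 falls without either no-ARID1A repeat or without ΔIDR1b repeat 1. The balance turned in the fit on genes without overlap, with 5 of 24 collagen chains higher and 6 lower (median -0.11 in place of 0.15), and the falls numbered 8 with length and base composition trends removed. The cartilage collagen COL2A1 rose from 27.9 and 29.3 CPM to 65.2 and 65.4 CPM and COL12A1 from 19.2 and 19.4 CPM to 39.5 and 40.5 CPM, while COL27A1 fell from 134 and 136 CPM to 90.3 and 91.1 CPM. LOX, the enzyme that cross-links collagen, also fell, from 534 and 589 CPM to 171 and 272 CPM. The fibroblast marker list, which shares collagens with this one, summed to 88.0 and 95.2 CPM against 124 and 130 CPM, with 2 of 9 higher (COL1A1, COL3A1); its part in the result was not tested.

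Integrins, the receptors for these proteins, rose in 6 of 17 and fell in none. The 6 became 2 without no-ARID1A repeat 1 or without ΔIDR1b repeat 2. ITGA3, a laminin receptor chain, went from 11.9 and 17.4 CPM to 26.1 and 27.5 CPM. Cadherins and junction proteins rose in 12 of 28 and fell in 2, and 5 rises were left without no-ARID1A repeat 2, 5 without ΔIDR1b repeat 1 and 6 without no-ARID1A repeat 1. The 2 falls became 1 without any of no-ARID1A repeat 2, ΔIDR1b repeat 1 or ΔIDR1b repeat 2. TJP3, a tight junction scaffold, was at 3.75 and 3.98 CPM against 9.06 and 7.23 CPM. Of 25 actin and SRF target genes 9 rose and 4 fell, with 5 rises without no-ARID1A repeat 1 and 2 falls without no-ARID1A repeat 2 or ΔIDR1b repeat 1. In the fit on genes without overlap the direction turned, with 1 of 10 higher and 4 lower (median -0.23 in place of 0.21). Filamin C (FLNC), an actin cross-linker, rose from 242 and 239 CPM to 467 and 514 CPM, and the tropomyosin TPM2 fell from 187 and 194 CPM to 105 and 127 CPM.

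The genes that ERK signalling induces, many of which dampen the pathway, had the highest share of rises among the 33 lists: 10 of 16 rose and 3 fell, with a median of 0.94. SPRY4, an inhibitor of receptor tyrosine kinase signalling, went from 0.426 and 0.346 CPM to 4.39 and 4.17 CPM (log2 3.44 ± 0.50 SE, edgeR adjusted p = 1.81e-06). The ETS factor ETV5 went from 1.11 and 2.16 CPM to 11.3 and 8.20 CPM, and ETV4 from 8.01 and 7.52 CPM to 14.37 and 15.4 CPM. CCND1, cyclin D1, rose from 17.5 and 17.4 CPM to 78.3 and 65.6 CPM (log2 2.04 ± 0.14 SE, edgeR adjusted p = 3.93e-13). SPRY1 fell from 46.7 and 49.6 CPM to 30.7 and 31.3 CPM, and SPRY2 was not called (edgeR adjusted p = 0.837), so the Sprouty genes did not move together.

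Immediate early and AP-1 genes moved mostly the other way. Of 18, 9 fell and 4 rose, with a median of -0.35, and 9 falls were called whichever of the 4 libraries was left out. The fit on genes without overlap had 4 of 10 members lower and 3 higher (median -0.09). FOSB was at 15.3 and 13.4 CPM against 4.74 and 3.89 CPM, and JUND at 718 and 703 CPM against 258 and 292 CPM. FOSL1 rose from 3.24 and 3.98 CPM to 10.7 and 9.45 CPM, and the zinc finger factor EGR1 from 11.5 and 12.5 CPM to 38.7 and 29.2 CPM. JUN, at 2462 and 2422 CPM against 2152 and 2355 CPM, was not called (edgeR adjusted p = 0.366). AP-1 subunits thus changed in both directions.

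Pathway lists of development were mixed. In the TGF-beta and BMP list 13 of 39 rose and 8 fell, and 11 rose and 11 fell with length and base composition trends removed. The activin subunit gene INHBA and the repressor SKI (60.4 and 62.04 CPM against 125 and 129 CPM) rose, while the BMP antagonist NOG fell from 52.2 and 47.7 CPM to 9.41 and 14.04 CPM. The BMP-induced inhibitors ID2 and ID3 fell too, ID3 from 204 and 202 CPM to 65.3 and 52.8 CPM. SMAD7, the feedback inhibitor, fell from 61.1 and 59.1 CPM to 25.1 and 26.1 CPM. In the Notch list 6 of 21 rose and 5 fell (3 falls without no-ARID1A repeat 1 or ΔIDR1b repeat 1): the receptors NOTCH1 (41.3 and 47.4 CPM against 104 and 112 CPM) and NOTCH3 rose, whereas the target genes HES4, HEY1 and HES1 fell, HES4 from 437 and 449 CPM to 106 and 138 CPM. Of 31 Wnt targets and feedback genes 12 rose and 2 fell, and the 2 falls became 1 without no-ARID1A repeat 2 and 0 without any other of the 4 libraries. The fit on genes without overlap had 2 of 14 Wnt targets and feedback genes higher and 1 lower (median 0.14). NKD2, which restrains Dishevelled, went from 28.6 and 28.3 CPM to 58.5 and 58.5 CPM. Of 21 YAP/TEAD targets 8 rose and 3 fell, with 5 rises without no-ARID1A repeat 1. In the fit on genes without overlap 1 of 10 rose and 3 fell. ANKRD1 rose from 2.56 and 2.94 CPM to 15.2 and 12.4 CPM, but CCN1 (CYR61), the classic target, fell from 270 and 245 CPM to 83.2 and 96.3 CPM, and CCN2 was not called (edgeR adjusted p = 0.334).

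**Figure D4:**
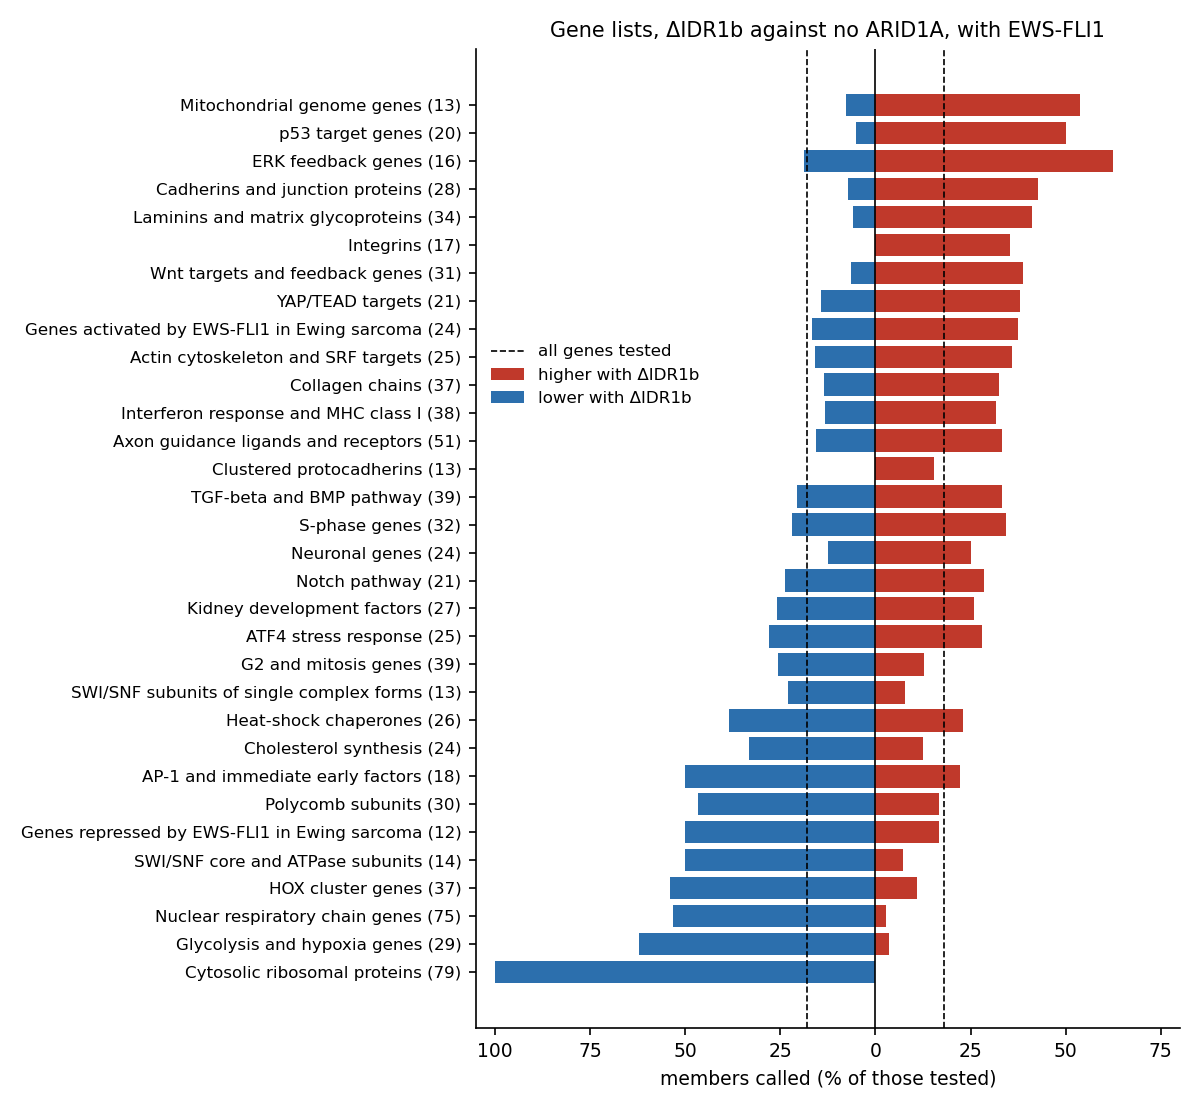
Percentage of each list's tested members (number in brackets) that were higher (red, right) or lower (blue, left) with ΔIDR1b than without ARID1A; dashed lines mark all genes tested (18.1% higher, 17.9% lower). Ribosomal protein genes were all lower (79 of 79), and ERK feedback genes were higher in 10 of 16.

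HOX genes, which set positional identity and which the 293 line expresses from all clusters, fell in 20 of 37 and rose in 4 (median -0.48). The falls numbered 13 without no-ARID1A repeat 1. HOXA13 was at 102 and 94.2 CPM against 24.2 and 36.6 CPM, and HOXB2 at 38.5 and 46.1 CPM against 16.4 and 17.4 CPM. None of the 4 rises was called without either no-ARID1A library, and 1 was without either ΔIDR1b library. Polycomb subunits, which keep such clusters silent, fell in 14 of 30 and rose in 5. EED, of the methylating complex PRC2, fell from 75.5 and 71.6 CPM to 35.7 and 36.3 CPM and BMI1, of PRC1, from 68.8 and 80.5 CPM to 41.4 and 35.7 CPM. The CBX readers moved apart, with CBX6 up from 136 and 128 CPM to 304 and 336 CPM and CBX8 down from 25.6 and 28.3 CPM to 10.8 and 12.7 CPM.

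Within SWI/SNF, ARID1B, the paralogue that can take the place of ARID1A, fell from 133 and 145 CPM to 89.5 and 86.8 CPM (log2 -0.66 ± 0.11 SE, edgeR adjusted p = 1.08e-05). BICRAL, of the non-canonical complex, rose from 5.37 and 4.58 CPM to 11.6 and 10.5 CPM. Core and ATPase subunits fell in 7 of 14, but in only 2 to 4 when 1 of the 4 libraries was left out (3 without no-ARID1A repeat 1 or 2, 2 without ΔIDR1b repeat 1, 4 without ΔIDR1b repeat 2). The fall of SMARCE1 was called in each of these, from 28.3 and 21.3 CPM to 6.51 and 5.98 CPM. The ATPase gene SMARCA4 was at 391 and 419 CPM against 395 and 438 CPM (edgeR adjusted p = 0.781).

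Genes of the cell cycle showed no single direction. Of 32 S-phase genes 11 rose and 7 fell, and of 39 G2 and mitosis genes 5 rose and 10 fell. The proliferation marker MKI67 was at 265 and 248 CPM against 430 and 450 CPM, and CENPF at 133 and 130 CPM against 290 and 245 CPM. The small mitotic genes UBE2C (204 and 204 CPM against 107 and 119 CPM) and CKS1B fell. The 7 S-phase falls became 4 without no-ARID1A repeat 1 and 3 without no-ARID1A repeat 2 or ΔIDR1b repeat 1. The 5 rises of the mitotic list became 2 without either no-ARID1A repeat or ΔIDR1b repeat 2 and 3 without ΔIDR1b repeat 1. In the p53 target list 10 of 20 rose and 1 fell, the fall not being called without no-ARID1A repeat 2. CDKN1A, the inhibitor p21, was at 67.3 and 67.2 CPM against 91.5 and 111 CPM, and BTG2 at 13.3 and 16.0 CPM against 38.2 and 38.9 CPM. In 293T cells p53 is bound by viral proteins.

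Genes that EWS-FLI1 activates in Ewing sarcoma, as a list from the literature, rose in 9 of 24 and fell in 4, with 5 rises without no-ARID1A repeat 2 and 2 falls without ΔIDR1b repeat 2. CCND1 and BCL11B (1.79 and 1.73 CPM against 6.51 and 4.52 CPM) were among the rises, and ID2 (256 and 230 CPM against 79.9 and 75.6 CPM) among the falls. Of 12 genes that it represses there, 6 fell and 2 rose (1 rose without no-ARID1A repeat 2). NFKBIZ went from 27.8 and 27.6 CPM to 8.07 and 8.48 CPM, LOX and CCN1 fell as above, and TNC rose. SOX2 was at 5.03 and 2.94 CPM against 3.75 and 3.82 CPM (edgeR adjusted p = 0.884). In the same contrast without EWS-FLI1, 6 genes of the activated list rose and 4 fell (median 0.235, against 0.285 with EWS-FLI1). Of the repressed list, 2 rose and 7 fell there (median -0.60, against -0.48 with EWS-FLI1). Both lists thus moved in much the same way in libraries that lack the fusion.

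Interferon genes and MHC class I genes rose in 12 of 38 and fell in 5, with 3 falls without either no-ARID1A repeat or without ΔIDR1b repeat 1. IFIT3 followed IFIT2, from 55.8 and 57.3 CPM to 157 and 136 CPM, and the helicase DDX60 rose from 12.7 and 14.5 CPM to 32.4 and 34.6 CPM. ISG15, a ubiquitin-like modifier, fell from 66.4 and 66.5 CPM to 33.6 and 36.5 CPM. Axon guidance genes rose in 17 of 51 and fell in 8, with 8 rises without no-ARID1A repeat 1, 11 without ΔIDR1b repeat 2. The 8 falls became 5 without no-ARID1A repeat 1, 4 without no-ARID1A repeat 2 and 1 without ΔIDR1b repeat 1. The plexin PLXNA2 went from 2.81 and 3.37 CPM to 15.4 and 11.6 CPM, and the ligand SLIT2 from 353 and 353 CPM to 198 and 207 CPM. Neuronal genes rose in 6 of 24 and fell in 3, with 2 rises without no-ARID1A repeat 2 and 3 without no-ARID1A repeat 1 or ΔIDR1b repeat 1. In the fit on genes without overlap none of 12 neuronal genes rose and 2 fell. Kidney development factors rose in 7 of 27 and fell in 7, with 4 rises without no-ARID1A repeat 1 or ΔIDR1b repeat 2. Here SALL2 rose from 30.4 and 34.6 CPM to 90.0 and 97.2 CPM and FOXD1 fell from 137 and 155 CPM to 46.2 and 57.1 CPM. Of 13 clustered protocadherin genes 2 were called, both higher, with none called without no-ARID1A repeat 1 or ΔIDR1b repeat 1 and 1 without each of the other two. The endothelial markers KDR and CLDN5 were also higher, in a list that summed to 1.36 and 0.778 CPM against 4.11 and 5.28 CPM with PECAM1 at 0 or 0.139 CPM.

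The same contrast without EWS-FLI1 shares no library with the one above. It called 6778 genes (33.3%), 3349 higher and 3429 lower (16.4% and 16.8%). Without empty-vector no-ARID1A repeat 2 it called 4495, and without empty-vector ΔIDR1b repeat 2 it called 4484. Of these, 5333 were also called with EWS-FLI1, and 5330 of the shared calls had the same direction. That is 72.8% of the calls with EWS-FLI1 and 78.6% of those without. Across the 12394 genes at 5 CPM or more, the log2 changes correlated at r = 0.933 (rho = 0.909), with a slope of 0.975. These genes come from the same libraries and are not independent replicates. The ribosomal protein median was -0.71 without EWS-FLI1, where all 79 were lower, and KRT17 rose by 7.21 on the log2 scale.

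A test of the difference between both contrasts (the interaction term) called 4 of 20377 genes, or 0.0196%, of which 3 were lower (0.0147%) and 1 higher (0.00491%). With 2 libraries a group, 702 of the 20377 genes had an unadjusted p under 0.05. This is a smaller share than that threshold passes on average when no gene differs. DESeq2 called 3 genes. Of the 4 genes, 3 encode inducible chaperones. HSPA6, an HSP70 induced under severe stress, was at 4.26 and 4.06 CPM without ARID1A and at 0.566 and 0.487 CPM with ΔIDR1b when EWS-FLI1 was present. Without EWS-FLI1 the order was the opposite, 11.2 and 12.3 CPM against 26.3 and 22.3 CPM. The difference between the 2 changes was -4.01 ± 0.41 SE on the log2 scale (edgeR adjusted p = 2.98e-07).

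DNAJB1, the HSP40 partner of HSP70, was at 220 and 194 CPM against 50.8 and 59.6 CPM with EWS-FLI1, and at 240 and 236 CPM against 182 and 214 CPM without it. The interaction was -1.64 ± 0.16 SE (edgeR adjusted p = 8.55e-08). HSPA1B, the main inducible HSP70, was at 421 and 396 CPM against 78.4 and 166 CPM with EWS-FLI1, and at 537 and 584 CPM against 634 and 689 CPM without it (-1.98 ± 0.23 SE, edgeR adjusted p = 3.20e-06). Its near-identical copy HSPA1A was at 5.71 and 5.79 CPM against 0.779 and 4.38 CPM with EWS-FLI1. Pairs that map to both copies were dropped, so the levels of both are incomplete. Overlap with another gene also covers 36.6% of the exonic bases of HSPA1B. With wild-type ARID1A and EWS-FLI1 these chaperones were also below the libraries without ARID1A: DNAJB1 was at 69.1 and 73.5 CPM, HSPA1B at 192 and 192 CPM and HSPA6 at 0.226 and 0.682 CPM.

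PTGS2, the inducible cyclooxygenase, went the other way. It was at 34.3 and 32.1 CPM against 46.5 and 42.8 CPM with EWS-FLI1, and at 29.4 and 25.4 CPM against 13.1 and 15.7 CPM without it (1.36 ± 0.20 SE, edgeR adjusted p = 7.04e-04). Its rise with EWS-FLI1 alone (log2 0.43, edgeR adjusted p = 0.0147) was no longer called without no-ARID1A repeat 1 (edgeR adjusted p = 0.0537), no-ARID1A repeat 2 (0.127) or ΔIDR1b repeat 1 (0.117). Besides HSPA6 and PTGS2, NPIPB3 was the only gene called in both contrasts with opposite signs.

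The windows of the 4 genes were compared because their response depended on EWS-FLI1. GAANNTTC lay in 4.13% of all promoters read, 3.45% of those of genes that rose and 4.44% of those of genes that fell. HSPA6 (chr1:161524290-161524539, plus strand) held it at 2 places and TGANTCA at 2 places. HSPA1B (chr6:31827488-31827737, plus strand) and PTGS2 (chr1:186680424-186680673, minus strand) held GAANNTTC at 1 place each. The window read for DNAJB1 (chr19:14529272-14529521, minus strand) held none of the 4 motifs. It lies inside the span over which DNAJB1 was counted (chr19:14514769-14560391). Any other start of DNAJB1 was not read, so the motifs of its other promoters are not known from this search. Capitals mark the matches, which are letters in these windows and not measured binding sites.
HSPA6: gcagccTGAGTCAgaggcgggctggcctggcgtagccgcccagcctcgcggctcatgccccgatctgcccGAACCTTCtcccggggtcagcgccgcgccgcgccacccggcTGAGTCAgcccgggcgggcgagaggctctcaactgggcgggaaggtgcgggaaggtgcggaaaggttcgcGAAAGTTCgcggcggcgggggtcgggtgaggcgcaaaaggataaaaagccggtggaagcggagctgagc
HSPA1B: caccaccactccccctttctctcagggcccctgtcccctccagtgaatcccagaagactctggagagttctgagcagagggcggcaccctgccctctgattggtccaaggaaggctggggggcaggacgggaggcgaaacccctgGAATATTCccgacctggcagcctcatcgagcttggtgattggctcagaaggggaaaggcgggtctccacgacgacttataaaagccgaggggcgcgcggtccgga
PTGS2: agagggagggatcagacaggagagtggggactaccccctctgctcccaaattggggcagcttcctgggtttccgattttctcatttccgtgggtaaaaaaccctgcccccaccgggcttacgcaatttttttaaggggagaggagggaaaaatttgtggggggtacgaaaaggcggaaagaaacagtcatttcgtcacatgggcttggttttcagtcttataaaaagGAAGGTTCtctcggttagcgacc

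**Figure D5:**
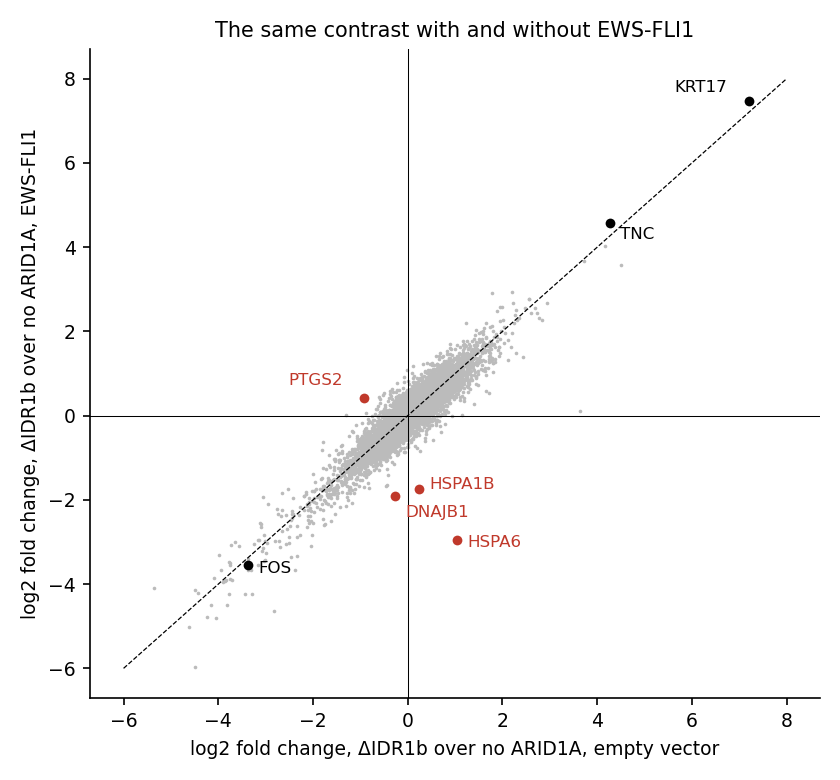
Log2 fold change, ΔIDR1b over no ARID1A, with EWS-FLI1 (vertical) against the empty vector (horizontal), for tested genes at a mean of 5 CPM or more in the 4 EWS-FLI1 libraries plus the labelled genes; the dashed line marks equal changes. Most genes lie along the line, while HSPA6, HSPA1B, DNAJB1 and PTGS2 (red), the 4 genes called for the difference, lie away from it.

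The ΔIDR1b libraries were also compared directly with wild-type ARID1A, both with EWS-FLI1. Here 3785 genes were called (18.6%), 1727 higher with ΔIDR1b (8.48%) and 2058 lower (10.1%), and 1886 were called without ΔIDR1b repeat 1. The introduced genes were not matched in this pair. FLI1 was at 1888 and 1906 CPM with ΔIDR1b and 3675 and 3462 CPM with wild type, and ARID1A at 2608 and 2621 CPM against 1843 and 2291 CPM. Values without EWS-FLI1, where FLI1 was at most 0.146 CPM in these groups, are therefore given beside some of the genes that follow; the difference between ΔIDR1b and wild type was not tested there.

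Among genes at 5 CPM or more, the largest differences above wild type were in SLC16A13 (whose rise over no ARID1A DESeq2 did not call, adjusted p = 0.0694), PPP1R10, ANKRD63, MOCS3, SMIM10L2B and GNB3. PPP1R10, a nuclear regulator of protein phosphatase 1, was at 39.2 and 41.3 CPM with ΔIDR1b, 6.62 and 7.81 CPM with wild type and 12.8 and 12.6 CPM without ARID1A (ΔIDR1b against wild type log2 2.48 ± 0.17 SE, edgeR adjusted p = 3.99e-12). MOCS3, of molybdenum cofactor synthesis, was at 9.27 and 12.2 CPM with ΔIDR1b, 1.88 and 2.73 CPM with wild type and 1.88 and 1.73 CPM without ARID1A. Without EWS-FLI1 the gap between ΔIDR1b and wild type was also present, at 38.6 and 37.5 CPM against 8.48 and 6.72 CPM for PPP1R10 and at 10.2 and 9.58 CPM against 1.56 and 2.62 CPM for MOCS3. IFIT2 stood at 263 and 229 CPM against 101 and 95.2 CPM (log2 1.32 ± 0.11 SE), and NOTCH3 at 165 and 170 CPM against 83.3 and 111 CPM. For these 4 genes both ΔIDR1b libraries were above all libraries of the other groups with EWS-FLI1.

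EIF4A1, PSMA2, GLIPR1, ANKRD37, DDX47 and CCN1 were the largest differences below wild type among genes at a mean of 5 CPM or more over these 4 libraries. Overlap with other genes, where pairs were not counted, covered 47.4% of the exonic bases of EIF4A1 and 40.3% of ANKRD37. It covered 36.5% of DDX47, 29.7% of PSMA2 and 24.4% of GLIPR1. CCN1 was at 83.2 and 96.3 CPM with ΔIDR1b against 397 and 369 CPM with wild type (log2 -2.09 ± 0.11 SE, edgeR adjusted p = 1.28e-15), and the level without ARID1A lay between, at 270 and 245 CPM. Without EWS-FLI1, CCN1 was at 115 and 137 CPM with ΔIDR1b and 607 and 534 CPM with wild type. HSPA5 had the same order: 614 and 644 CPM with ΔIDR1b, 1882 and 1811 CPM without ARID1A and 2571 and 2153 CPM with wild type. FOS had another order, with 14.7 and 13.4 CPM for ΔIDR1b, 44.6 and 43.3 CPM for wild type and 158 and 169 CPM without ARID1A. CXCR4 followed FOS, with 77.5 and 71.3 CPM for wild type, and so did ADM, with 101 and 112 CPM. KRT17 was somewhat lower with ΔIDR1b than with wild type (249 and 312 CPM, log2 -0.48 ± 0.15 SE, edgeR adjusted p = 0.0189).

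By list, 72 of 79 ribosomal protein mRNAs were lower with ΔIDR1b than with wild type and none was higher, against 10.1% lower among all genes. Glycolysis and hypoxia genes were lower in 19 of 29 and AP-1 and immediate early genes in 11 of 18, with none higher in either. Polycomb subunits were lower in 12 of 30 and higher in 2, and heat-shock chaperones lower in 9 of 26 and higher in 2. Wnt targets were higher in 7 of 31 and lower in 1, and laminins and matrix glycoproteins higher in 6 of 34 with none lower. HOX genes did not lean to 1 side here, with 5 higher and 4 lower of 37.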

How the data were processed

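Per the file headers, the authors used featureCounts 2.0.1 to count read pairs by gene name, with exons from GENCODE (release 41, for GRCh38 patch 13). Both ends had to be aligned, strand was ignored, and multi-mapping pairs and pairs shared by genes were dropped. Per the submitters' processing notes, STAR was among the tools; its settings are not given in the sources used here. The deposited values are raw counts of 60645 gene names in 12 libraries.

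Genes were kept by filterByExpr (minimum count 10, minimum total 15), which left 20377 names with 99.8 to 99.9% of each library's counts. CPM values use TMM-scaled library sizes. A quasi-likelihood model with 1 mean for each of 6 groups was fitted with edgeR 4.0.16 (limma 3.58.1, R 4.3.3), and genes were called at a 2-sided Benjamini-Hochberg adjusted p under 0.05. The scripts were tested on simulated data. The alternatives were upper-quartile scaling, no filter or a stricter one (50 counts in 2 libraries), length and base composition trends removed, a replicate block, only the groups compared, each library left out, DESeq2 1.42.0 and, chosen after seeing the data, only protein-coding genes of 2 or more exon blocks without overlap, and leaving out a wild-type library.

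Named genes were the introduced genes; among called genes at 5 CPM or more whose groups do not overlap, the 12 largest rises, the 12 largest falls and the 5 smallest p in each direction; up to 4 called members of a list in each direction at 1 CPM or more and its defining members; and up to 6 per direction in the other contrasts. GAPDH, ENO1, LDHA, SLC2A1, HSP90B1, HSP90AA1, FN1, ETV4, SPRY2, JUN, CCN2, SMARCA4, CDKN1A, SOX2, HSPA1A and NPIPB3 were named after their values were seen. The members and lists were chosen with earlier results of these data known.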

Additional observations from a re-analysis of the deposited data

Results flagged for a closer look

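The change with ΔIDR1b differed between cells with and without EWS-FLI1 in 4 genes by the edgeR interaction test. The difference between the log2 changes was -4.01 for HSPA6, -1.64 for DNAJB1, -1.98 for HSPA1B and 1.36 for PTGS2. HSPA6 rests on 0.566 and 0.487 CPM in the ΔIDR1b libraries with EWS-FLI1, and the ΔIDR1b repeats of HSPA1B lay apart (78.4 and 166 CPM).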

How the results depend on the processing

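The count of 7321 genes with EWS-FLI1 ran from 6254 (DESeq2) to 8255 over the fits on the full gene table, and from 5038 to 8286 with 1 library left out. It was 2658 on the smaller table of protein-coding genes without overlap and 2570 at a log2 change of at least 1. The interaction gave 4 to 6 genes with 1 library left out, 9 with length and base composition trends removed and a replicate block, and 0 on the table without overlap, which leaves the 4 genes out. The comparison with wild type (3785) gave 1622 with only the groups compared, 1420 without overlap, 1140 at a log2 change of at least 1 and 1886 to 4383 with 1 library left out; the cause was not tested. The contrast without EWS-FLI1 (6778) gave 2520 without overlap, 2327 at a log2 change of at least 1 and 4484 to 4763 with 1 library left out.

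The sign of EWSR1, at 0.01, turned to -0.0071 with upper-quartile scaling or only the groups compared, -0.0074 with the stricter filter, -0.0042 with DESeq2, and -0.15 with length and base composition trends removed, also with the replicate block (edgeR adjusted p = 0.0597 and 0.0468). EWSR1 ran from -0.0352 to 0.0561 with 1 library left out. FLI1, at 0.11, became -0.0285 with these trends removed and -0.0291 with the replicate block as well. Of 238 named genes, 196 kept their direction and their side of the threshold without no-ARID1A repeat 1, 195 without repeat 2, 198 without ΔIDR1b repeat 1, 202 without ΔIDR1b repeat 2 and 216 with DESeq2. The labels do not say that equal repeat numbers share a batch, and the differences between repeats correlated at r = 0.0997 between both groups; a replicate block gave 8157 genes with EWS-FLI1 and 4 for the interaction. Below the floor of 3 counts in a library, depth does not allow a level to be told from 0.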
